A study of Mus musculus with 81 samples.

Results

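The genes described here encode Wnt ligands, their receptors and the core proteins of planar cell polarity. They were chosen by symbol alone, as protein-coding genes named Wnt, Fzd, Dvl, Ror, Vangl, Celsr or Prickle, together with Ryk, Lrp5 and Lrp6. The rule found 46 members among 57010 gene identifiers, of which 21664 are protein-coding: 19 ligands, 10 Frizzled receptors, 5 co-receptors, 3 Dishevelled proteins and 9 planar polarity proteins. None lies in the segments triplicated in the mice of this study. RNA was sequenced from CA1 pyramidal neurons (CA1 PNs), CA3 pyramidal neurons (CA3 PNs) and dentate granule cells (DGCs). The neurons were recognised by shape in Nissl-stained coronal sections of the rostral hippocampus and cut out by laser capture microdissection (LCM). The animals were male offspring, about 6 MO of age, of Ts65Dn females and C57Bl/6J Eicher x C3H/HeSnJ F1 males. Ts mice carry the partial trisomy that models Down syndrome, and 2N mice are their disomic littermates. Their dams ate a diet with 1.1 g/kg choline (normal diet) or 5.0 g/kg choline (supplemented diet) from conception to weaning, so diet is a property of the mother and normal-diet and supplemented-diet offspring are different mice. On the normal diet there were 6 2N and 5 Ts libraries of CA1 PNs, 6 and 6 of CA3 PNs and 6 and 6 of DGCs. On the supplemented diet there were 7 2N and 9 Ts libraries of CA1 PNs, 7 and 7 of CA3 PNs and 7 and 9 of DGCs. Each of the 81 libraries holds 1 population of 1 mouse, and most mice gave all 3 populations.

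Wnt proteins are secreted, lipid-modified signals that bind Frizzled receptors. With the co-receptors Lrp5 or Lrp6, a bound Frizzled recruits Dishevelled (Dvl1 to Dvl3) and spares β-catenin from destruction, after which β-catenin activates genes with TCF and LEF factors. Ryk and the receptor tyrosine kinases Ror1 and Ror2 take Wnt signals into routes that do not use β-catenin. In planar cell polarity, Vangl, Prickle, Celsr and Frizzled proteins gather on opposite faces of neighbouring cells and orient them within a tissue sheet. In the hippocampus, Wnt signals are known for shaping dentate neurogenesis, dendrites and synapses, and planar polarity proteins for guiding axons and assembling glutamatergic synapses.

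The promoters of the 4 members with the most marked contrasts between populations, and of Fzd10, which differed within the CA1 PN libraries, are printed because no other sequence in these data bears on where a member is transcribed. Each is the 250 bases before the start of the canonical transcript in GRCm39, from RefSeq's genome with Gencode starts, read 5′ to 3′ on the strand of the gene. Capitals mark the core letters bound by TCF and LEF factors, CTTTGA or on the other strand TCAAAG. Ror1 lies at chr4:99952738-99952987 (plus strand), Wnt2 at chr6:18031893-18032142 (minus strand), Fzd7 at chr1:59521019-59521268 (plus strand), Vangl2 at chr1:171854881-171855130 (minus strand) and Fzd10 at chr5:128677658-128677907 (plus strand).
Ror1: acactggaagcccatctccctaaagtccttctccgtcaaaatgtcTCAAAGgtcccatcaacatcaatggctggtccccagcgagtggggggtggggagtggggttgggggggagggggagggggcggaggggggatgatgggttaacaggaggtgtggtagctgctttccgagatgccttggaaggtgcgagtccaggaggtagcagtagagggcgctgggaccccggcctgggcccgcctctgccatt
Wnt2: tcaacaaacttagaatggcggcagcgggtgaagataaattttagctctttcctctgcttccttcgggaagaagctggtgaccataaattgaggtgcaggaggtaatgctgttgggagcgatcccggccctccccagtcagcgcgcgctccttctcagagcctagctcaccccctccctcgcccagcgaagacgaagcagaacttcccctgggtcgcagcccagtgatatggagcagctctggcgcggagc
Fzd7: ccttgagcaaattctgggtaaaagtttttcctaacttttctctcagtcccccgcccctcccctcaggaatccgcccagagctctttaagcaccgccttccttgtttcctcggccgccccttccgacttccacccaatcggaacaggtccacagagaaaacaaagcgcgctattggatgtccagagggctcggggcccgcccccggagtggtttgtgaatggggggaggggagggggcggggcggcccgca
Vangl2: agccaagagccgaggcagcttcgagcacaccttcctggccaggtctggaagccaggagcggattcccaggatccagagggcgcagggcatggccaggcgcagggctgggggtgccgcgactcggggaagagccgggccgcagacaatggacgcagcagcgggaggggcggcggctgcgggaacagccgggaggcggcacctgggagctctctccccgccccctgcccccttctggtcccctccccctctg
Fzd10: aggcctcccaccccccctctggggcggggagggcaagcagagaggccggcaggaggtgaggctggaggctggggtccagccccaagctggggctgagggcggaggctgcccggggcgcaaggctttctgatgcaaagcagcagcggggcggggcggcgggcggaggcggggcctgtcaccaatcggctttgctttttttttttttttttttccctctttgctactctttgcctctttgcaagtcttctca
The core letters occurred once before Ror1 and not in the other 4 windows. Across the family they occurred in 5 of 46 windows (10.9%), those of Ror1, Lrp6, Prickle1, Prickle3 and Wnt8a. Among 21770 protein-coding genes 3073 windows (14.1%) held them, so the share of members was near the background.

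The depth and identity of the libraries bear on every value. Total expected counts ran from 625249 to 4744036 on the normal diet and from 358355 to 2559173 on the supplemented diet, so many members rest on a few reads. Marker genes matched the labelled population in the CA3 PN and DGC libraries. The mean of the CA3 markers was 7.39 to 7.76 log2 CPM in CA3 PNs, and the mean of the dentate markers was 7.58 to 8.09 in DGCs, with 1 CA3 PN library, that of mouse 15-140, also holding dentate markers at 4.46. In CA1 PNs the mean of the CA1 markers ran from 2.48 to 7.81. In 10 of the 27 CA1 PN libraries the markers of the neighbouring CA2 field (7 genes, among them Amigo2, Rgs14 and Pcp4) averaged 5.74 to 7.91, against 1.64 to 3.23 in the other 17. Pcp4 is itself triplicated in Ts mice. The same 10 libraries had CA3 markers at 4.71 to 7.29, against 1.56 to 3.33, and in 6 of them the CA2 markers exceeded the CA1 markers. They comprised 2 of 6 2N and 1 of 5 Ts libraries on the normal diet and 3 of 7 2N and 4 of 9 Ts libraries on the supplemented diet. Values for CA1 PNs are therefore also given without them, an alternative chosen after seeing the data. The CA1 PN library of mouse 17-154, labelled 2N, had triplicated genes at a mean of 6.12 log2 CPM, inside the range of the Ts libraries (5.85 to 6.19) and above that of the other 2N CA1 PN libraries (5.36 to 5.58). For mouse 15-145 the CA3 PN label reads Ts but both other labels read 2N, and all its libraries were taken as 2N here. Its CA3 PN library had triplicated genes at a mean of 5.74 log2 CPM. That was inside the range of the other 2N CA3 PN libraries (5.34 to 5.78) and below that of the Ts ones (6.04 to 6.31). Markers of cells that LCM can carry along also differed between populations, each as a mean log2 CPM. Oligodendrocyte markers were at 3.4 to 5.23 in CA1 PNs, 4.65 to 5.84 in CA3 PNs and 2.85 to 4.23 in DGCs, and inhibitory neuron markers at 3.83 to 5.37, 3.73 to 5.00 and 2.67 to 3.91. Cajal-Retzius markers were at 0.70 to 3.60, 3.11 to 5.54 and 2.06 to 3.84, astrocyte markers at 3.60 to 4.74, 4.19 to 5.36 and 3.7 to 4.72, and excitatory neuron markers at 9.54 to 10.19 over all libraries. Their part in the population differences of the members was not tested. In LCM tissue a lower level can mean fewer cells that express a gene or less RNA in each, and these cannot be told apart.

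Planar polarity genes supplied most of the family's transcripts, and ligands supplied few. Levels between genes are given as TPM, a share of all transcripts, which correct for transcript length, as medians over 2N normal-diet libraries. They rank genes within a population, and populations are compared by the edgeR tests below. Celsr2 and Dvl1, whose TPM medians differ between CA1 PNs and CA3 PNs, had adjusted p of 0.324 and 0.149 in that test on the normal diet. The medians of the 46 members summed to 276, 358 and 349 TPM for CA1 PNs, CA3 PNs and DGCs, of which the 9 planar polarity genes made up 198, 268 and 202 TPM and the 19 ligands 11.6, 7.98 and 21.2 TPM. Prickle2, a cytoplasmic planar polarity protein also found at synapses, was the most abundant member in each population, at 108, 133 and 81.1 TPM, and Celsr2, an adhesion receptor of the flamingo family, was the next, at 55.0, 93.2 and 52.3 TPM. The 3 Dishevelled genes each lay above 4 TPM in every population, with Dvl1 at 11.0, 24.5 and 18.6 TPM. Among receptors, Lrp6 (12.2, 14.7 and 31.8 TPM), Fzd3 (12.7, 9.28 and 16.7 TPM) and Ryk (6.0, 7.0 and 15.9 TPM) led. Lrp5, the paralog of Lrp6, had medians of 0.42, 0.64 and 0.24 TPM. For CA1 PNs, CA3 PNs and DGCs in turn, 7, 7 and 11 members reached a median of 10 TPM and 17, 14 and 16 had a median of 0.

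The ligands differed in which population held them. In CA1 PNs the ligands with a median of 1 TPM or more were Wnt2 (4.78 TPM), Wnt7b (1.48 TPM) and Wnt11 (1.42 TPM). In CA3 PNs they were Wnt7b (2.64 TPM), Wnt10a (2.60 TPM) and Wnt2 (1.25 TPM), and in DGCs they were Wnt7b (15.4 TPM), Wnt9a (2.56 TPM), Wnt16 (1.12 TPM) and Wnt5a (1.04 TPM). Wnt5a does not set DGCs apart, since its median in CA1 PNs was 0.955 TPM. The edgeR test below gave it an adjusted p of 0.565 between CA1 PNs and DGCs. Wnt16 rested on 11 counts in these DGCs, and its median in supplemented-diet 2N DGCs was 0.23 TPM. Of the others, Wnt8a had no read in any of the 81 libraries, Wnt1 and Wnt8b had reads in 4, and Wnt2b, Wnt3a, Wnt6 and Wnt9b had reads in 10 each. Ror2, the paralog of Ror1, had reads in 3 libraries. By contrast, Fzd3, Lrp6, Ryk, Dvl1, Dvl2, Dvl3, Celsr2, Celsr3, Prickle1 and Prickle2 were counted in all 81. Prickle4 shares reads with other genes and its counts are uncertain. The library kit keeps strand, but whether the counting used it is not given in the sources used here, and for the 30 members that overlap a gene on the opposite strand it is not known whether reads of that gene entered their counts. Ror1, Wnt2, Wnt4, Wnt9a, Vangl2, Prickle1, Fzd1 and Fzd8 have no such partner.

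**Figure D1:**
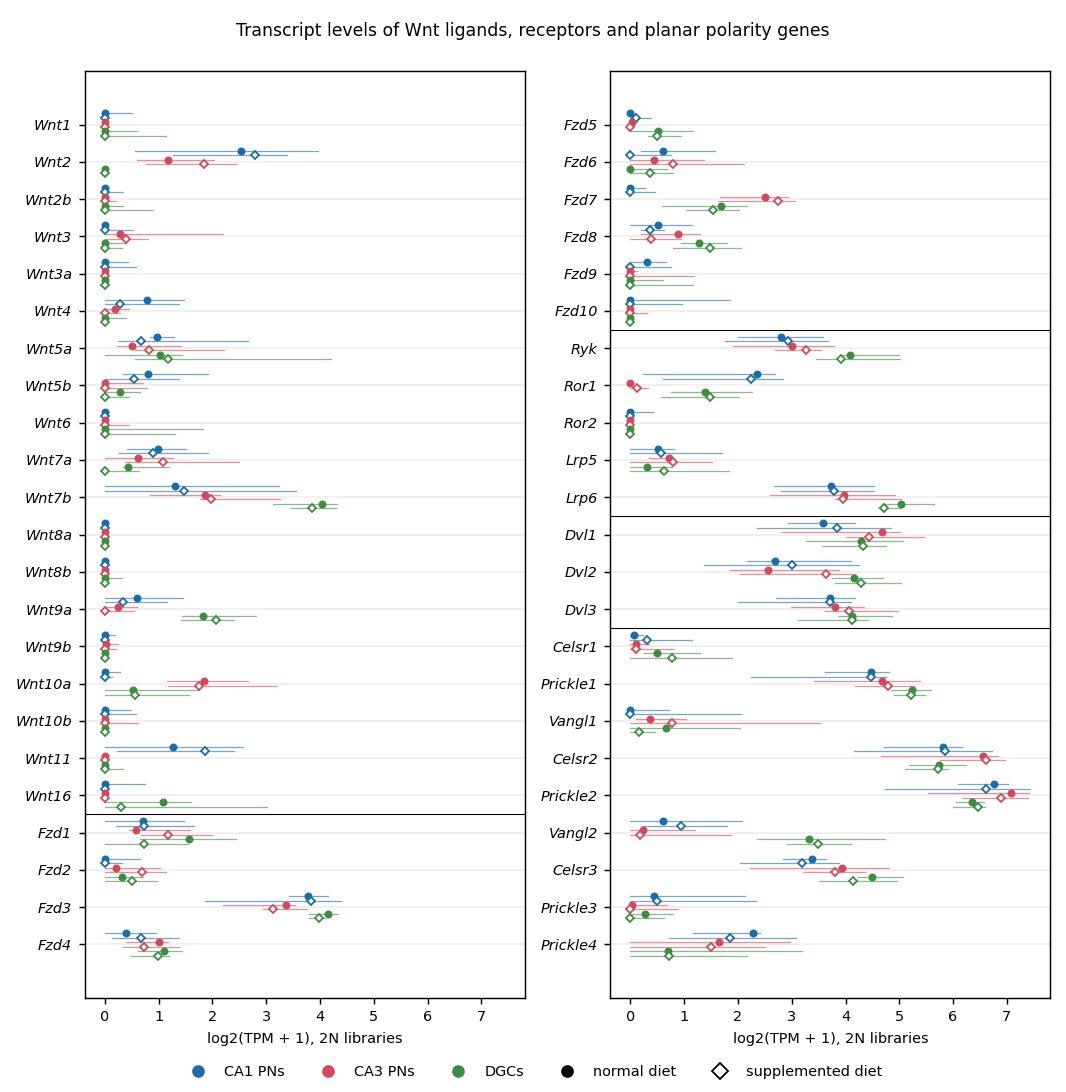
Transcript levels of the 46 members in 2N libraries, as log2(TPM + 1) on the horizontal axis, ordered from ligands and Frizzled receptors to co-receptors, Dishevelled and planar polarity genes. Points are medians (filled circles, normal diet; open diamonds, supplemented diet), lines run from the lowest to the highest library, and colours mark CA1 PNs, CA3 PNs and DGCs. Prickle2 and Celsr2 lie farthest to the right in all 3 populations, while Wnt8a sits at 0 throughout.

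Populations were compared among 2N libraries, separately on each diet, to ask which members distinguish CA1 PNs, CA3 PNs and DGCs. The sets hold different mice. The values are LFCs (log2 fold changes) from edgeR's quasi-likelihood test, and a member is called when its p, adjusted by the Benjamini-Hochberg procedure over all genes tested, is under 0.05. Between CA1 PNs and CA3 PNs, 7 of 33 members tested were called on the normal diet and 8 of 34 on the supplemented diet, where 20.8% and 21.2% of all genes were called. Between CA1 PNs and DGCs the counts were 19 of 33 and 17 of 34, beside 30.9% and 29.5% of all genes, and between CA3 PNs and DGCs they were 18 of 33 and 19 of 34, beside 39.6% and 38.2%. The members tested are those over 0.1 CPM in enough libraries, and a gene found in 1 population passes through that population, so these counts only describe them. The 11 members left out on both diets were Wnt1, Wnt2b, Wnt3a, Wnt6, Wnt8a, Wnt8b, Wnt9b, Wnt10b, Fzd9, Fzd10 and Ror2.

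Of the 32 members tested on both diets, 6 were called in the same direction in both sets of mice between the pyramidal populations, 15 for CA1 PNs against DGCs and 17 for CA3 PNs against DGCs. Over all genes the same rule called 15.9%, 23.4% and 31.5%. Of the 15, 5 were higher in CA1 PNs (Ror1, Wnt2, Wnt4, Celsr2 and Prickle2) and 10 were higher in DGCs (Fzd7, Fzd8, Lrp6, Ryk, Dvl2, Celsr3, Prickle1, Vangl2, Wnt7b and Wnt9a). Of the 17, 5 were higher in CA3 PNs (Fzd7, Wnt2, Wnt10a, Celsr2 and Prickle2) and 12 were higher in DGCs. The median LFC of the members tested was -0.696 for CA1 PNs against DGCs on the normal diet and -0.117 on the supplemented diet, where the median of all genes was -0.0384 and -0.00573. With library totals in place of TMM factors the median of all genes in these contrasts moved to -0.175 and -0.124, and that of CA3 PNs against DGCs from -0.0457 and -0.0388 to -0.249 and -0.240, while each member named below kept its direction.

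**Figure D2:**
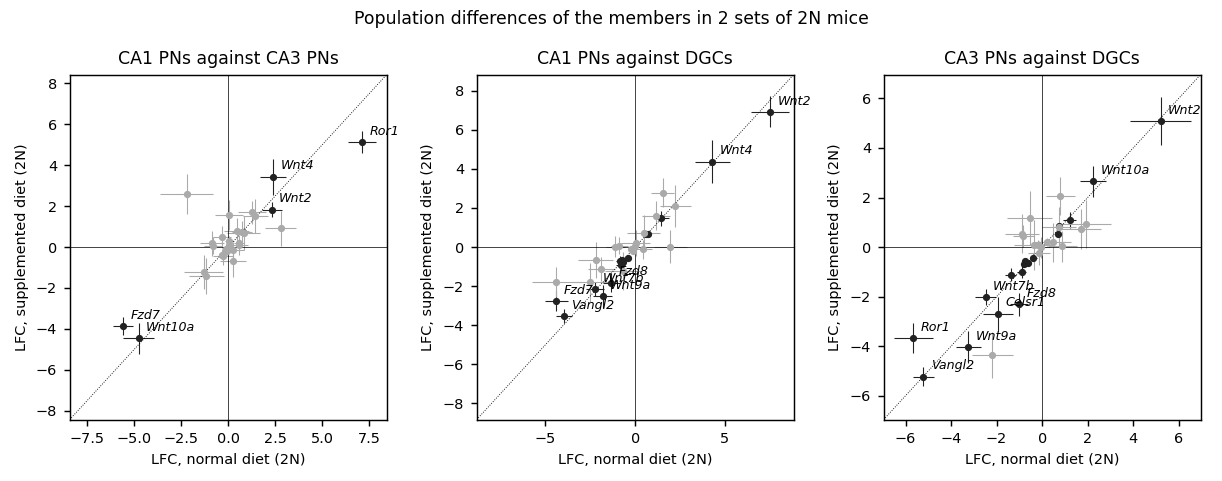
LFC between populations in 2N mice of the normal diet (horizontal) against 2N mice of the supplemented diet (vertical) for the members tested on both diets, with standard errors as bars and the line of equal values dotted. Black points had an adjusted p under 0.05 on both diets and grey points did not, and names mark black points beyond 1.5. Ror1 is far to the upper right for CA1 PNs against CA3 PNs and to the lower left for CA3 PNs against DGCs. The fitted LFC of Wnt2 and Wnt4 against DGCs rests on groups with 0 or 1 count and has no reliable size.

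Among receptors, Ror1 and Fzd7 marked opposite populations. Ror1, a receptor tyrosine kinase for Wnt5a, ran in 2N normal-diet libraries from 1.15 to 40.3 CPM in CA1 PNs (median 28.6, n = 6), from 3.92 to 16.0 CPM in DGCs (median 8.73, n = 6) and from 0 to 0.242 CPM in CA3 PNs (median 0, n = 6). On the supplemented diet it ran from 2.45 to 38.8 CPM in CA1 PNs (median 21.3, n = 7), from 2.45 to 14.7 CPM in DGCs (median 8.61, n = 7) and from 0 to 1.09 CPM in CA3 PNs (median 0.571, n = 7). Every CA1 PN and DGC library thus lay above every CA3 PN library, while CA1 PNs and DGCs overlapped. Between CA1 PNs and CA3 PNs the LFC was 7.13 (SE 0.74, adjusted p = 5.38e-08) on the normal diet and 5.13 (SE 0.53, adjusted p = 1.89e-10) on the supplemented diet. The normal-diet CA3 PN group held 1 count of Ror1 against 146 in CA1 PNs, a ratio of 282 with a 95% counting interval from 49.8 to 11200. DGCs exceeded CA3 PNs as well, with a CA3 PN to DGC LFC of -5.67 (SE 0.86, adjusted p = 7.18e-06) and -3.66 (SE 0.61, adjusted p = 4.30e-06).

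Ror1 was also higher in CA1 PNs than in DGCs, by an LFC of 1.46 on both diets (SE 0.42, adjusted p = 0.00967 and SE 0.38, adjusted p = 0.00217). The normal-diet call was lost without mouse 15-145 (LFC 1.33, adjusted p = 0.157) or mouse 17-172 (LFC 1.29, adjusted p = 0.0651), and with limma-voom (LFC 1.09). Without the CA1 PN libraries with high CA2 markers it was larger, at 1.91 and 1.92 (adjusted p = 1.48e-08 and 5.80e-07). The lowest Ror1 values in CA1 PNs, 1.15 and 2.45 CPM, came from mice 17-21 and 15-336, whose libraries had CA2 markers at 7.91 and 7.70 log2 CPM.

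Fzd7, a Frizzled receptor found in stem and progenitor cells, had the opposite arrangement of Ror1 among the pyramidal neurons. In 2N normal-diet libraries it ran from 15.4 to 26.1 CPM in CA3 PNs (median 20.8), from 1.62 to 13.7 CPM in DGCs (median 9.82) and from 0 to 1.12 CPM in CA1 PNs (median 0). On the supplemented diet it ran from 10.9 to 28.1 CPM in CA3 PNs (median 20.2), from 3.91 to 13.2 CPM in DGCs (median 8.81) and from 0 to 4.27 CPM in CA1 PNs (median 0). CA3 PN libraries lay above every CA1 PN library on both diets, and above every DGC library on the normal diet. The LFC of CA1 PNs against CA3 PNs was -5.60 (SE 0.53, adjusted p = 7.20e-12) and -3.87 (SE 0.44, adjusted p = 4.18e-10), and that of CA3 PNs against DGCs was 1.21 (SE 0.29, adjusted p = 6.94e-04) and 1.09 (SE 0.32, adjusted p = 0.00479). The normal-diet CA1 PN group held 2 counts against 244 in CA3 PNs, a ratio of 63.2 (95% counting interval 17.3 to 524).

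The widely expressed receptors differed by less. Fzd3, which guides axons together with Celsr3, had medians of 192, 108.5 and 182 CPM in CA1 PNs, CA3 PNs and DGCs of the normal diet and of 170, 116 and 162 CPM on the supplemented diet. It was lower in CA3 PNs than in CA1 PNs (LFC of CA1 PNs against CA3 PNs 0.78, SE 0.12, adjusted p = 2.11e-06 and 0.71, SE 0.13, adjusted p = 2.87e-05) and than in DGCs (LFC of CA3 PNs against DGCs -0.81, SE 0.12, adjusted p = 4.14e-07 and -0.68, SE 0.13, adjusted p = 3.48e-05). Every normal-diet CA3 PN library (96.7 to 119 CPM) lay below every CA1 PN (122.6 to 240.7 CPM) and DGC library (166 to 203 CPM). Lrp6, the main co-receptor of the β-catenin route, was higher in DGCs, where it ran from 139 to 173 CPM, than in CA1 PNs (67.1 to 119 CPM) and CA3 PNs (88.1 to 109 CPM). Its LFC against DGCs was -0.73 and -0.67 in CA1 PNs (adjusted p = 3.08e-06 and 7.07e-06) and -0.74 and -0.56 in CA3 PNs (adjusted p = 9.71e-07 and 7.63e-05), for the normal and supplemented diets. The groups did not overlap on the normal diet. Ryk, a receptor whose kinase domain is inactive, was lower in CA3 PNs than in DGCs (LFC -0.91, adjusted p = 3.74e-04 and -1.01, adjusted p = 2.50e-04). In CA1 PNs against DGCs its LFC was -0.85 and -0.71 (adjusted p = 0.00212 and 0.0148). The supplemented-diet call was lost without mouse 15-269, 15-334 or 16-90 (adjusted p from 0.05 to 0.0802) and without the libraries with high CA2 markers (LFC -0.51, adjusted p = 0.138). Fzd8 was the least stable of these receptors. Its normal-diet calls against DGCs (LFC -1.32 in CA1 PNs, adjusted p = 0.0214, and -1.01 in CA3 PNs, adjusted p = 0.0418) were lost without mouse 15-147, 17-172 or 17-56 in CA1 PNs (adjusted p from 0.0595 to 0.113). In CA3 PNs the Fzd8 call was lost without mouse 15-145, 15-147, 17-172, 17-21 or 17-56 (adjusted p from 0.0503 to 0.179) and with the mouse as a block (adjusted p = 0.0615). On the supplemented diet Fzd8 had an LFC of -1.82 and -2.31 (adjusted p = 0.00227 and 7.56e-05), and both calls held without each mouse.

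The ligands sorted the populations further. Wnt2 marked pyramidal neurons. In 2N normal-diet libraries it ran from 1.15 to 36.8 CPM in CA1 PNs (median 15.3) and from 1.63 to 5.87 CPM in CA3 PNs (median 2.71), and on the supplemented diet from 2.45 to 22.4 CPM (median 16.0) and from 1.71 to 6.79 CPM (median 4.34). No Wnt2 read was counted in any of the 13 DGC libraries of 2N mice, and 1 was counted in all 28 DGC libraries. Against a floor of 3 counts over the DGC group, 0.438 and 0.504 CPM on the 2 diets, Wnt2 was at least 39.7-fold and 28.7-fold higher in CA1 PNs and at least 7.52-fold and 8.18-fold higher in CA3 PNs. The adjusted p of these contrasts ran from 8.30e-10 to 0.00388. Wnt2 passed the filter through CA1 PNs and CA3 PNs alone, so these tests against DGCs only describe it. CA1 PNs exceeded CA3 PNs by an LFC of 2.31 (SE 0.52, adjusted p = 0.00283) and 1.83 (SE 0.39, adjusted p = 2.75e-04), although the groups overlapped.

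Wnt4 and Wnt11 were found mainly in CA1 PNs at lower counts. Wnt4 ran from 0 to 11.5 CPM in normal-diet 2N CA1 PNs (median 3.23, 28 counts in all), from 0 to 2.01 CPM in CA3 PNs (median 0.640, 10 counts) and from 0 to 1.295 CPM in DGCs (median 0, 1 count). The groups overlapped at 0. The LFC of CA1 PNs against CA3 PNs was 2.38 (SE 0.69, adjusted p = 0.00908) and on the supplemented diet 3.44 (SE 0.88, adjusted p = 0.00277, on 15 counts against 1). Without mouse 15-147 the normal-diet value was 2.25 (adjusted p = 0.0520). Against DGCs the ratio of pooled counts was 32.0 (95% counting interval 5.29 to 1310) on the normal diet and at least 5.00-fold on the supplemented diet, where the DGCs had none (adjusted p = 4.05e-04 and 0.00182). On the supplemented diet Wnt4 was above 0 in 6 of the 2N CA1 PN libraries and had 1 count outside them. It thus passed the filter mainly through CA1 PNs and failed it in 1 of 7 leave-outs, so its supplemented-diet tests only describe it. Wnt11, named here after its values were seen, had no read in the 26 CA3 PN libraries and 1 in the 28 DGC libraries. In CA1 PNs it had 24, 22, 35 and 57 counts in 2N normal-diet, 2N supplemented-diet, Ts normal-diet and Ts supplemented-diet libraries. Among 2N mice Wnt11 was at least 15.2-fold and 11.3-fold higher in CA1 PNs than in CA3 PNs, with a bound of at least 8.97-fold over DGCs on the normal diet. It passed the filter for population tests through CA1 PNs alone and only on the supplemented diet, so no test is given.

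Wnt10a was higher in CA3 PNs than in both other populations. It ran from 3.25 to 10.4 CPM there (median 6.44) on the normal diet and from 3.43 to 13.6 CPM (median 4.79) on the supplemented diet. CA1 PNs had 1 count of Wnt10a in the 2N libraries of each diet, and the DGC medians were 0.845 and 0.877 CPM. Every CA3 PN library lay above every CA1 PN library. The LFC of CA1 PNs against CA3 PNs was -4.76 (SE 0.82, adjusted p = 1.15e-05) and -4.46 (SE 0.75, adjusted p = 5.70e-06), and the ratios of pooled counts were 41.4 (95% counting interval 7.22 to 1660) and 36.0 (6.19 to 1450). Against DGCs the LFC was 2.25 (SE 0.57, adjusted p = 0.00122) and 2.65 (SE 0.61, adjusted p = 4.00e-04). Wnt3, which failed the filter on the normal diet, had 25 counts in 2N CA3 PNs there against 0 in CA1 PNs and 1 for DGCs, and 8, 2 and 1 counts on the supplemented diet, where it was not called.

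Wnt7b and Wnt9a were higher in DGCs than in both pyramidal populations. Wnt7b, which promotes dendrite growth, ran from 24.3 to 55.7 CPM in DGCs (median 36.2), from 3.25 to 8.74 CPM in CA3 PNs (median 8.12) and from 0 to 28.6 CPM in CA1 PNs (median 5.79) of normal-diet 2N mice. Medians on the supplemented diet were 38.5, 9.91 and 5.98 CPM. DGC and CA3 PN libraries did not overlap, and among normal-diet CA1 PN libraries that of mouse 17-21, with CA2 markers at 7.91 log2 CPM, entered the DGC range. The LFC against DGCs was -2.48 (SE 0.47, adjusted p = 3.84e-04) and -2.01 (SE 0.32, adjusted p = 5.77e-06) in CA3 PNs, and -2.23 (SE 0.50, adjusted p = 0.00212) and -2.16 (SE 0.35, adjusted p = 8.46e-06) in CA1 PNs. Without the libraries with high CA2 markers the CA1 PN values were -3.51 and -2.86. Wnt9a ran from 5.48 to 13.8 CPM in normal-diet DGCs (median 7.09), with medians of 1.955 CPM in CA1 PNs and 0.505 CPM in CA3 PNs. Its LFC against DGCs was -1.80 (SE 0.53, adjusted p = 0.00634) and -2.52 (SE 0.59, adjusted p = 5.56e-04) in CA1 PNs and -3.25 (SE 0.55, adjusted p = 3.85e-06) and -4.03 (SE 0.64, adjusted p = 8.47e-07) in CA3 PNs. The normal-diet CA1 PN and DGC ranges overlapped, since the highest CA1 PN library had 6.69 CPM of Wnt9a.

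**Figure D3:**
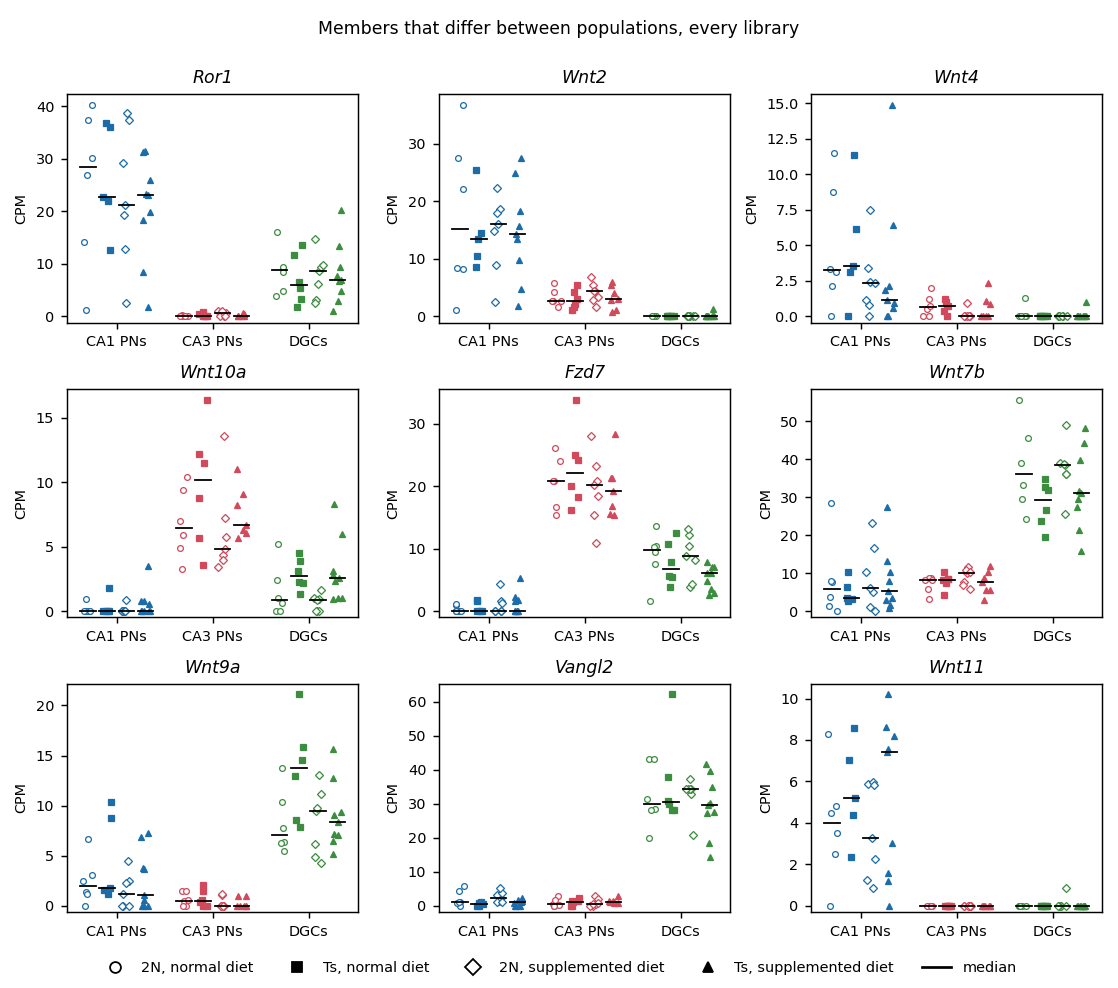
CPM of 9 members in every library, with populations along the horizontal axis, symbols for genotype and diet and bars for group medians. Each panel has its own vertical axis, so levels compare within a gene. Ror1, Wnt2, Wnt4 and Wnt11 are highest in CA1 PNs, Wnt10a and Fzd7 in CA3 PNs, and Wnt7b, Wnt9a and Vangl2 in DGCs, with similar arrangements of the 4 groups in each population.

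Among the intracellular and planar polarity members, Vangl2 separated DGCs from both pyramidal populations. Vangl2, a transmembrane core protein of planar polarity, ran from 19.9 to 43.1 CPM in normal-diet 2N DGCs (median 29.9), from 0 to 5.73 CPM in CA1 PNs (median 1.15) and from 0 to 2.79 CPM in CA3 PNs (median 0.394). On the supplemented diet it ran from 20.8 to 37.2 CPM in DGCs (median 34.3), from 1.14 to 5.12 CPM in CA1 PNs (median 2.35) and from 0 to 2.89 CPM in CA3 PNs (median 0.685). No DGC library of any group, the lowest at 14.2 CPM, fell within the pyramidal range. The LFC against DGCs was -3.96 (SE 0.44, adjusted p = 3.46e-09) and -3.53 (SE 0.34, adjusted p = 1.85e-12) in CA1 PNs and -5.22 (SE 0.46, adjusted p = 5.92e-12) and -5.23 (SE 0.39, adjusted p = 1.52e-16) in CA3 PNs. On the supplemented diet CA1 PNs also exceeded CA3 PNs (LFC 1.70, SE 0.57, adjusted p = 0.0235). That call was lost without mouse 14-125, 15-269 or 16-90 (adjusted p from 0.0886 to 0.118) and without the libraries with high CA2 markers (LFC 1.38, adjusted p = 0.170).

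Prickle2 and Celsr2, the most abundant members, were lower in DGCs than in pyramidal neurons. In normal-diet 2N libraries Prickle2 ran from 644 to 868 CPM in CA1 PNs, from 674 to 828.9 CPM in CA3 PNs and from 425 to 501 CPM in DGCs, so DGCs did not overlap the others. Its LFC against DGCs was 0.73 and 0.65 in CA1 PNs (adjusted p = 3.40e-09 and 2.30e-08) and 0.67 and 0.54 in CA3 PNs (adjusted p = 1.63e-08 and 9.24e-07). Celsr2 ran from 475 to 772 CPM in CA1 PNs, from 614 to 763 CPM in CA3 PNs and from 348 to 417 CPM in DGCs, again without overlap. Its LFC against DGCs was 0.60 and 0.65 in CA1 PNs (adjusted p = 4.41e-06 and 2.47e-07) and 0.75 and 0.83 in CA3 PNs (adjusted p = 2.46e-08 and 3.29e-10). Their paralogs ran the other way. Celsr3, which acts in axon tract formation, had an LFC against DGCs of -0.70 and -0.74 in CA1 PNs (adjusted p = 7.31e-06 and 1.20e-05) and of -0.61 and -0.65 in CA3 PNs (adjusted p = 3.94e-05 and 6.10e-05). Prickle1 had medians of 99.4 CPM in CA1 PNs, 95.7 CPM in CA3 PNs and 132 CPM in DGCs of the normal diet. Its LFC against DGCs was -0.43 and -0.58 in CA1 PNs (adjusted p = 0.0226 and 2.41e-04) and -0.38 and -0.42 in CA3 PNs (adjusted p = 0.0297 and 0.00468). The normal-diet calls of Prickle1 were lost without mouse 17-154, 17-172 or 17-56 in CA1 PNs (adjusted p from 0.0636 to 0.0746) and without mouse 15-145, 15-147, 17-172 or 17-56 in CA3 PNs (adjusted p from 0.0605 to 0.1). Without the libraries with high CA2 markers the CA1 PN value was -0.27 (adjusted p = 0.109).

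Of the Dishevelled genes, Dvl2 was called against DGCs on both diets. Dvl2 had medians of 17.9 CPM in CA1 PNs, 10.5 CPM in CA3 PNs and 29.2 CPM in DGCs of normal-diet 2N mice. CA3 PNs lay below every DGC library (6.04 to 16.4 CPM against 21.0 to 32.9 CPM), with an LFC of -1.38 (SE 0.24, adjusted p = 7.50e-06) and of -1.12 on the supplemented diet (SE 0.25, adjusted p = 2.78e-04). In CA1 PNs the LFC was -0.80 and -0.92 (adjusted p = 0.0104 and 0.00454). The normal-diet value was -0.61 without mouse 17-154 (adjusted p = 0.0765), and without the libraries with high CA2 markers the values were -0.45 and -0.57 (adjusted p = 0.178 and 0.109). Dvl1 had medians of 41.5, 53.0 and 46.4 CPM and Dvl3 of 39.2, 43.5 and 46.9 CPM on the normal diet, with overlapping groups. Dvl1 and Dvl3 were not called, but with the mouse as a block Dvl1 was called for CA1 PNs against CA3 PNs on the supplemented diet (without the block LFC -0.41, adjusted p = 0.0696). Wnt5b, Wnt7a, Wnt16, Fzd5 and Celsr1, with medians of at most 1.12 TPM in every group, were each called in at least 1 contrast of 1 diet but not in the matching contrast of the other diet, except Celsr1 between CA3 PNs and DGCs (LFC -1.93 and -2.69, adjusted p = 0.0175 and 0.00132). With the mouse as a block the normal-diet calls of Celsr1 (adjusted p = 0.0668), Wnt16 (adjusted p = 0.0753) and Wnt5b (adjusted p = 0.0916) between CA1 PNs and DGCs were lost. The normal-diet call of Celsr1 between CA3 PNs and DGCs was lost without mouse 17-154 or 17-21 (adjusted p = 0.0600 and 0.0818).

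Within the CA1 PN libraries, several members differed with the level of the CA2 markers. Fzd10, named here after its values were seen, had 0 counts in all 17 libraries with low CA2 markers and reads in all 10 with high CA2 markers, where it ran from 0.746 to 9.44 CPM (median 3.33, 52 counts). It had 8 counts in 7 of the 26 CA3 PN libraries and 1 count in the 28 DGC libraries. Fzd10 was the only 1 of the 46 members whose values did not overlap between the 2 sets of CA1 PN libraries. The share of all genes without overlap was not counted, so this number only describes the members. Fzd10 overlaps Fzd10os on the opposite strand. Ror1 ran from 19.9 to 40.3 CPM (median 30.1) with low and from 1.15 to 23.1 CPM (median 12.7) with high CA2 markers, and Wnt2 from 8.31 to 36.8 CPM (median 18.3) and from 1.15 to 17.9 CPM (median 8.55). Wnt7b had the reverse order, from 0 to 16.5 CPM (median 3.07) and from 5.41 to 28.6 CPM (median 10.4). Medians with low and high CA2 markers were 201 and 142 CPM for Fzd3, 109 and 88.5 CPM for Prickle1, 5.85 and 1.75 CPM for Wnt11 and 557 and 644 CPM for Celsr2. These sets were drawn from the libraries' own values, CA3 markers differed between them as well, and no test was made.

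**Figure D4:**
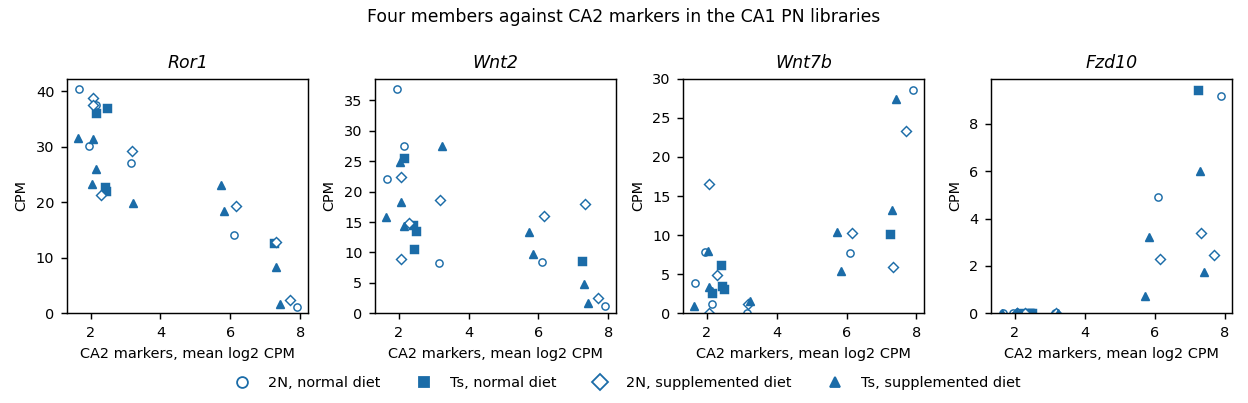
CPM of Ror1, Wnt2, Wnt7b and Fzd10 (vertical axes) against the mean log2 CPM of 7 CA2 markers (horizontal axes) in the 27 CA1 PN libraries, with symbols for genotype and diet. The 10 libraries to the right, from 5.74 to 7.91, hold all reads of Fzd10 in CA1 PNs, and the lowest values of Ror1.

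Genotype was compared within each population to ask whether trisomy changes these genes. Following the study's rule, a DEG has an unadjusted p under 0.05, and few members met it. On the normal diet CA1 PNs had 0 DEGs among 19 members tested, CA3 PNs 1 among 23 and DGCs 3 among 22, where 3.77%, 9.20% and 8.50% of all genes were DEGs. No member had an adjusted p under 0.05 in any comparison of genotype or diet, under any alternative run. The median LFC of the members tested was 0.0598, 0.105 and -0.0229, against -0.0111, -3.63e-04 and 0.00256 for all genes. High CA2 markers were found in 2 of 6 2N and 1 of 5 Ts libraries of CA1 PNs on this diet, and the library of mouse 17-154 in the 2N group had triplicated genes at the level of Ts libraries. Without any 1 of the 11 mice, 17-154 included, CA1 PNs again had 0 DEGs among the members.

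The DEG of CA3 PNs was Prickle1, a cytoplasmic partner of the Vangl proteins. It was at 80.0, 95, 95.1, 96.4, 112 and 123.1 CPM in 2N and at 106, 121, 124, 127, 129 and 130 CPM in Ts libraries. Of the 6 Ts libraries, 4 lay above all 2N libraries, and the groups overlapped. The LFC was 0.29 (SE 0.096, unadjusted p = 0.00396, adjusted p = 0.214), and p stayed under 0.05 in all 12 leave-outs. With the library of mouse 15-145 under its own Ts label the LFC was 0.20 (unadjusted p = 0.0685, adjusted p = 0.800), and Fzd8 and Wnt5a were DEGs in its place. The triplicated genes of that library were in the range of the 2N libraries, as given above. Other-cell markers differed with genotype in the same groups, with inhibitory neuron markers at a mean of 4.71 log2 CPM in 2N and 4.05 in Ts and Cajal-Retzius markers at 4.72 and 3.87. Their part in the Prickle1 difference was not tested.

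The 3 DEGs of DGCs had few counts or small changes. Wnt9a was at 5.48, 6.30, 6.40, 7.77, 10.4 and 13.8 CPM in 2N and at 7.89, 8.6, 13.0, 14.6, 15.8 and 21.1 CPM in Ts libraries, with 3 Ts libraries above all 2N ones. The LFC was 0.67 (SE 0.29, unadjusted p = 0.0269, adjusted p = 0.525), and p exceeded 0.05 without mouse 15-147, 17-153, 17-154 or 17-21 (LFC from 0.48 to 0.61, p from 0.0524 to 0.126). Wnt7b was at 24.3, 29.4, 33.3, 39.0, 45.5 and 55.7 CPM in 2N and at 19.5, 23.7, 26.6, 32.0, 32.7 and 34.9 CPM in Ts libraries. The groups overlapped, with an LFC of -0.39 (SE 0.18, unadjusted p = 0.0310, adjusted p = 0.534), and p exceeded 0.05 without mouse 15-145, 15-147, 16-357, 17-157, 17-173 or 17-56 (p from 0.0509 to 0.128). Fzd3 was at 166, 172, 177, 188, 203 and 203 CPM in 2N and at 143, 156, 157, 167, 168 and 185 CPM in Ts libraries. These overlapped as well, with an LFC of -0.18 (SE 0.086, unadjusted p = 0.0374, adjusted p = 0.559), and p exceeded 0.05 without mouse 16-357, 17-173, 17-192, 17-21 or 17-56 (p from 0.0550 to 0.101). With limma-voom Wnt7b (LFC -0.34) and Fzd3 (LFC -0.17) were not called, Wnt9a was, and Wnt10a was called in addition. In normal-diet CA1 PNs the LFCs of the members tested ran from -0.686 to 0.852, and leaving out the libraries with high CA2 markers again gave 0 DEGs among the members while the DEGs among all genes rose from 463 to 872. DESeq2 and limma-voom also gave 0 there, while a fit of all 4 CA1 PN groups called 2 members, Vangl2 and Prickle4.

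**Figure D5:**
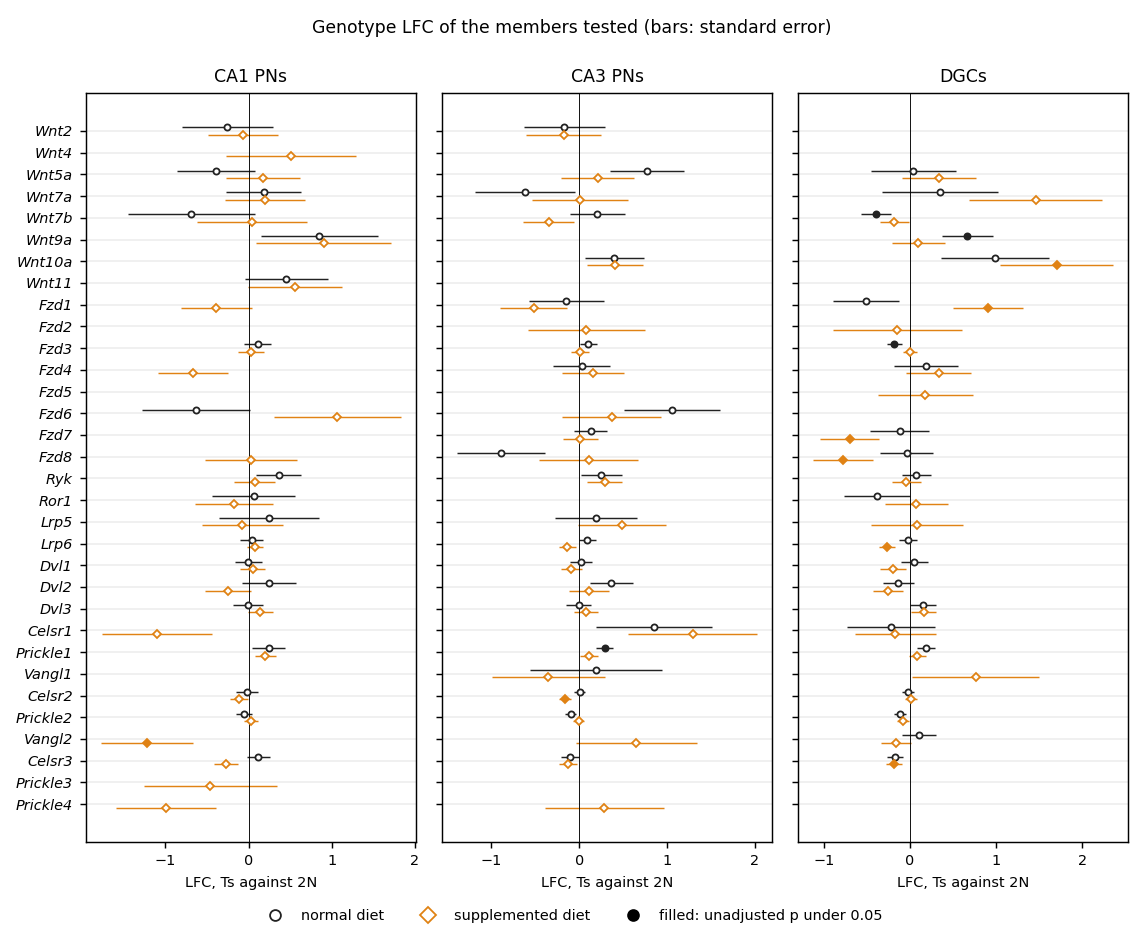
LFC of Ts against 2N for each member tested, by population, with standard errors as bars, for the normal diet (circles) and the supplemented diet (diamonds). Filled symbols have an unadjusted p under 0.05, none has an adjusted p under 0.05, and no member is filled for both diets in the same population.

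In mice of supplemented dams the same comparison gave other DEGs. CA1 PNs had 1 among 27 members tested, CA3 PNs 1 among 26 and DGCs 6 among 26, where 3.60%, 4.99% and 7.6% of all genes were DEGs. No member was a DEG in the same population on both diets. In these DGC libraries the inhibitory neuron markers also moved with genotype, from 2.67 to 3.29 log2 CPM in 2N and from 3.32 to 3.87 in Ts, without overlap, and Cajal-Retzius markers averaged 2.63 and 3.44. The part of those cells in the DEGs of DGCs was not tested. In DGCs, Lrp6 ran from 123.3 to 185 CPM in 2N (median 155) and from 113 to 163 CPM in Ts libraries (median 136), with an LFC of -0.26 (SE 0.092, unadjusted p = 0.00541, adjusted p = 0.274). Wnt10a ran from 0 to 1.60 CPM in 2N (median 0.877, 5 counts) and from 0.974 to 8.30 CPM in Ts libraries (median 2.57, 27 counts), with an LFC of 1.70 (SE 0.66, unadjusted p = 0.0117, adjusted p = 0.394). The groups overlapped for both, and p stayed under 0.05 in all 16 leave-outs. The other DEGs of DGCs were lost without single mice. Fzd1 (LFC 0.91, unadjusted p = 0.0268) was lost without mouse 15-269, 16-206 or 16-90 (p up to 0.0672), and Fzd8 (LFC -0.78, unadjusted p = 0.0272) without mouse 15-198, 15-199, 15-334 or 15-336 (p up to 0.114). Fzd7 (LFC -0.70, unadjusted p = 0.0438) and Celsr3 (LFC -0.18, unadjusted p = 0.0484) were lost in 8 and 10 of 16 leave-outs, with p up to 0.150 and 0.173, in both cases highest without mouse 16-90. In CA3 PNs Celsr2 had an LFC of -0.16 (unadjusted p = 0.0186, adjusted p = 0.801), which became -0.11 without mouse 15-336 (unadjusted p = 0.0765). In CA1 PNs Vangl2 had an LFC of -1.22 (unadjusted p = 0.0378, adjusted p = 1.0) on 18 counts in 2N and 13 in Ts libraries. It was lost in 7 of 16 leave-outs (p up to 0.127) and without the libraries with high CA2 markers (LFC -1.03, unadjusted p = 0.211).

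Diet was compared within each genotype to ask what maternal choline supplementation changed. In 2N mice CA1 PNs had 0 DEGs among 33 members, CA3 PNs 2 among 32 and DGCs 1 among 30, where 3.27%, 4.90% and 5.82% of all genes were DEGs. In Ts mice 2 of 33, 0 of 32 and 2 of 30 were DEGs, where 3.05%, 4.19% and 3.81% of all genes were. All 7 were lower on the supplemented diet in this fit. Among all genes, lower DEGs were also the more frequent in 2N CA3 PNs (473 of 819), 2N DGCs (555 of 963) and Ts DGCs (391 of 630). In Ts CA1 PNs they were the fewer (218 of 495). This direction depended on the setting. With library totals lower DEGs led in 2N CA3 PNs (445 of 810) and Ts CA1 PNs (287 of 495), and higher ones in 2N DGCs (500 of 957) and Ts DGCs (334 of 612). With DESeq2 higher DEGs led in these groups, with 347 of 669 in 2N CA3 PNs, 371 of 716 in 2N DGCs, 236 of 455 in Ts DGCs and 224 of 397 in Ts CA1 PNs. Which members were called in 2N mice depended on the tool. With limma-voom Lrp6, Ror1 and Wnt7b were called higher in CA3 PNs, Fzd4 higher in CA1 PNs and Fzd1 lower in DGCs. Each of these members had the same sign in the main fit. In 2N CA1 PNs DESeq2 also gave 0, and in Ts CA3 PNs both tools gave 0. In 2N DGCs, the median of Fzd1 was 7.38 CPM on the normal and 2.63 CPM on the supplemented diet, with an LFC of -0.96 (SE 0.42, unadjusted p = 0.0242, adjusted p = 0.831), and its groups overlapped. It was lost without mouse 15-269 or 17-172 (unadjusted p = 0.0596 and 0.131). In 2N CA3 PNs Wnt4 (LFC -2.25, unadjusted p = 0.0321, on 10 and 1 counts) and Fzd8 (LFC -1.09, unadjusted p = 0.0406) were lost in 6 and 8 of 26 leave-outs, with p up to 0.0818 and 0.122. The Wnt4 call was also lost with DESeq2 (unadjusted p = 0.0883) and with mouse 15-145 under its own label (unadjusted p = 0.0790), and neither was called with limma-voom. In Ts DGCs the median of Lrp6 was 165 CPM on the normal and 136 CPM on the supplemented diet, with an LFC of -0.25 (SE 0.094, unadjusted p = 0.00889, adjusted p = 0.999), and the call was lost without mouse 16-490 or 17-157 (unadjusted p = 0.0629 and 0.0727). The median of Wnt9a was 13.8 and 8.404 CPM (LFC -0.56, unadjusted p = 0.0414, adjusted p = 0.999), and the call was lost with library totals (unadjusted p = 0.0511) and in 10 of 28 leave-outs (p up to 0.205). In Ts CA1 PNs Celsr3 had an LFC of -0.36 (SE 0.14, unadjusted p = 0.0170, adjusted p = 1.0), which was -0.30 without the libraries with high CA2 markers (unadjusted p = 0.0354) and -0.31 without mouse 17-173 (unadjusted p = 0.0577). Wnt10b, with an LFC of -2.16 (unadjusted p = 0.00949), failed the filter in 10 of 27 leave-outs and had unadjusted p = 0.135 without the libraries with high CA2 markers.

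Whether the genotype LFC differed between diets was tested as an interaction. CA1 PNs had 1 call among 33 members, CA3 PNs 0 among 32 and DGCs 1 among 30, where 3.22%, 4.87% and 3.97% of all genes were called. In CA3 PNs DESeq2 also gave 0 and limma-voom gave 1 member, Celsr2. In DGCs the medians of Fzd1 were 7.38 CPM in 2N and 4.89 CPM in Ts libraries of the normal diet, and 2.63 and 6.82 CPM on the supplemented diet. The order of the genotypes was thus opposite on the 2 diets, the difference in LFC was 1.42 (SE 0.56, unadjusted p = 0.0119, adjusted p = 1.0), and p stayed under 0.05 in all 28 leave-outs. In CA1 PNs Celsr3 had a difference of -0.42 (unadjusted p = 0.0491), which was lost in 21 of 27 leave-outs (p up to 0.126) and without the libraries with high CA2 markers (unadjusted p = 0.0918).

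Whether the normal-diet genotype LFC differed between populations was tested in 1 fit of 35 libraries. Of 35 members, 2 were called for CA1 PNs against CA3 PNs, 1 for CA1 PNs against DGCs and 0 for CA3 PNs against DGCs, where 4.22%, 5.51% and 5.18% of all genes were called. Vangl2 had differences of -2.43 (unadjusted p = 0.0389) and -2.01 (unadjusted p = 0.0358) and Fzd5 one of 3.63 (unadjusted p = 0.0437), with adjusted p from 0.874 to 1.0. No read of Fzd5 was counted in the 2N CA1 PN libraries of this diet, so its difference has no reliable size. With mouse 15-145 under its own CA3 PN label the differences from CA3 PNs were not called (unadjusted p = 0.156 for Vangl2 and 0.107 for Fzd5). With the mouse as a block none of the 3 was called (unadjusted p = 0.0555, 0.0540 and 0.0514). Without the libraries with high CA2 markers their p was 0.0716, 0.0921 and 0.0987. The 2N CA1 PN library of mouse 17-154, with triplicated genes at the level of Ts libraries, was among those left out there. It was not left out by itself in this comparison. Vangl2 in CA1 PNs was a matter of single reads, at 0, 0, 0.614, 0.787 and 1.04 CPM in the 5 Ts libraries.

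Other genes of the Wnt pathway were counted in 3 lists that do not hold the members. The lists were chosen with earlier results of these data known, so their counts only describe them. The β-catenin-independent list includes Tiam1, which is triplicated in Ts mice. In the normal-diet comparison of genotypes, 0 of 20 tested genes of the β-catenin branch, 10 of 32 of planar polarity and other β-catenin-independent genes and 3 of 14 of secretion and regulators were DEGs in CA3 PNs, beside 9.20% of all genes. In DGCs the counts were 3 of 19, 3 of 32 and 2 of 12, beside 8.50%, and in CA1 PNs they were 0 of 19, 0 of 32 and 0 of 11. In mice of supplemented dams the counts for these lists were 1 of 22, 1 of 33 and 4 of 14 in CA3 PNs (4.99% of all genes), 4 of 21, 6 of 33 and 3 of 13 in DGCs (7.6%) and 1 of 20, 1 of 32 and 2 of 15 in CA1 PNs (3.60%), and the difference between the diets was not tested for the lists. Of the 10 in normal-diet CA3 PNs, 7 were higher and 3 lower in Ts. Genes with an adjusted p under 0.05 included Camk2g, a subunit of a calcium-dependent kinase, in CA3 PNs (LFC 0.36, adjusted p = 0.0395), and Tiam1, a Rac activator that is itself triplicated, in DGCs (LFC 0.54, adjusted p = 1.20e-09). Between populations, 22 of 33 β-catenin-independent genes were called in the same direction in both sets of 2N mice for CA3 PNs against DGCs, 13 higher in CA3 PNs and 9 higher in DGCs, where the rule called 31.5% of all genes. For CA1 PNs against DGCs the count was 21 of 33 (23.4% of all genes) and for CA1 PNs against CA3 PNs 10 of 33 (15.9%). In the β-catenin branch the counts were 3 of 22 for CA1 PNs against CA3 PNs, 7 of 22 for CA1 PNs against DGCs and 9 of 22 for CA3 PNs against DGCs. Of the last, 5 were higher in CA3 PNs and 4 were higher in DGCs. Among the 4 were Axin2, a target and brake of the route, and Ctnnb1, β-catenin itself.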

How the data were processed

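The authors aligned the reads with STAR to GRCm39 and estimated gene levels with RSEM. The deposited tables hold expected counts, which need not be whole (0.784% were not), and TPM, in which the authors divide by transcript length and depth. The submitters' processing notes also name FastQC 0.11.9, Trimmomatic 0.39, Picard 2.26.2 and the mm10 build. Strand use in counting and use of molecular identifiers are not given in the sources used here, so intervals and floors cover counting error only.

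Expected counts were rounded and tested with edgeR 4.0.16 in R 4.3.3 (TMM factors, robust quasi-likelihood test, Benjamini-Hochberg adjustment over all genes tested). Genes over 0.1 CPM in at least 10 libraries were tested, or in 6 (normal diet) and 7 (supplemented diet) for populations. Printed CPM use TMM factors over all 81 libraries. The study's covariates were not used here. Alternatives were DESeq2 1.42.0, limma 3.58.1 (voom), library totals, a count minimum of 10, no filter, leaving out each mouse, the mouse as a block and the own label of mouse 15-145. The edgeR fit was tested on simulated counts with 200 changed genes. These runs covered normal-diet genotype in DGCs, CA1 PNs against CA3 PNs on the normal diet and the interaction in CA3 PNs. Genes with low mean counts were not among those changed, and the alternatives were not simulated.

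Libraries of the same mouse pair across populations, since they come from the same animal. The deviations of 78 such pairs from their group means correlated with a median r of 0.104 (-0.014 to 0.23, over 7647 genes), against -0.00312 for 2108 pairs of different mice. Members and gene lists were chosen with earlier results of these data known. Members were named by rule where they were genotype DEGs on the normal diet or, called in the same direction in both sets of 2N mice, had the largest LFCs between populations. Wnt11, Fzd10 and further members described by role were added once their values were known. The result of 1 gene of the pathway lists is not reported here.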

Additional observations from a re-analysis of the deposited data

Results flagged for a closer look

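In 8 of 97 groups of libraries examined, 1 library stood apart from the rest by Dixon's criterion, which chance meets in about 1 in 20 groups. Wnt7b in CA1 PNs was at 28.6 CPM in 2N normal-diet mouse 17-21, with the next library at 7.80 CPM, and at 27.4 CPM in Ts supplemented-diet mouse 16-272, with the next at 13.2 CPM. Both libraries had high CA2 markers. Wnt4 in CA1 PNs was at 14.9 CPM in Ts supplemented-diet mouse 14-90 (next 6.42 CPM), and Wnt10a in CA3 PNs was at 13.6 CPM in 2N supplemented-diet mouse 16-90 (next 7.23 CPM). Prickle1 in CA3 PNs was lowest, at 106 CPM, in Ts normal-diet mouse 16-490 (next 121 CPM). Vangl2 was at 2.84 CPM in the CA3 PN library of Ts supplemented-diet mouse 15-140 (next 1.34 CPM), which had dentate markers at 4.46 log2 CPM. In DGCs Vangl2 was lowest, at 20.8 CPM, in 2N supplemented-diet mouse 15-334 (next 32.8 CPM) and highest, at 62.1 CPM, in Ts normal-diet mouse 17-192 (next 37.9 CPM).

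The genotype LFC differed between diets, by an unadjusted p under 0.05, for Fzd1 in DGCs (1.42) and Celsr3 in CA1 PNs (-0.418). It differed between populations on the normal diet for Vangl2 between CA1 PNs and CA3 PNs (-2.43) and between CA1 PNs and DGCs (-2.01), and for Fzd5 between CA1 PNs and CA3 PNs (3.63, of no reliable size). None had an adjusted p under 0.05.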

How the results depend on the processing

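Counts of members called, summed over populations, moved most with the filter on low counts. With a count minimum of 10, the supplemented-diet genotype count was 2 in place of 8, the diet count in 2N mice 1 in place of 3, the interaction count 0 in place of 2, and the population counts 26 (normal diet) and 27 (supplemented diet) in place of 44 each, with fewer members tested. With no filter, diet gave 6 in 2N and 7 in Ts mice (in place of 4) and the interaction 6. DESeq2 gave 2 for diet in Ts mice and 1 for the interaction, and limma-voom gave 5 for diet in 2N mice and 4 for the interaction. Without the CA1 PN libraries with high CA2 markers, the interaction gave 1, and the difference in genotype LFC between populations gave 1 in place of 3. The members tested and the calls over all genes changed with the setting as well. For supplemented-diet genotype in DGCs, 6 of 26 members and 1076 of 14162 genes were called in the main fit. A count minimum of 10 gave 1 of 12 and 783 of 9120, and no filter 7 of 42 and 1686 of 23349.

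With the mouse as a replicate block, the difference in genotype LFC between populations gave 0 in place of 3, and the population counts were 40 (normal diet) and 45 (supplemented diet). The block changed no count of calls but the first by over 1.5 times. The genotype and diet comparisons within a population hold 1 library a mouse and allow no block.

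Leaving out each mouse in turn gave 2 to 7 calls for genotype on the normal diet (main count 4), 5 to 8 on the supplemented diet, 1 to 5 for diet in 2N mice, 1 to 5 for diet in Ts mice, 1 to 4 for the interaction, 37 to 41 for populations on the normal diet and 41 to 46 on the supplemented diet. No direction reversed under the alternatives run. Leave-outs were not run for the difference in genotype LFC between populations. The number of members tested also moved between leave-outs, from 19 to 22 for genotype in normal-diet CA1 PNs. Shares of all genes are not given for the leave-outs. Depth limits most ligands, which rest on fewer than 100 counts a group.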
